A study of Mus musculus with 2 samples.

Results

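Pparg and 4 genes of the C/EBP family, Cebpa, Cebpb, Cebpd and Cebpg, were followed as 5 of the 32285 genes counted in cultured adipocyte precursors. They were picked by name, with no threshold on a measured value, and all 5 were detected in all of the precursor clusters. The precursors came from the stromal vascular fraction (the cells of fat tissue left after the adipocytes are removed) of C57/BL6J pups at postnatal day 0, male and female together, with no treatment or genetic change labelled. Age, strain and culture time are those of the labels. The study's own text gives another age. For the culture its methods give the same time to confluency as the labels, and its results a longer time. WAT denotes the subcutaneous white depot, digested with collagenase for 35 minutes, and BAT the interscapular brown depot, digested for 50 minutes. Cells of both depots were grown for 4 days to confluency, trypsinized and profiled as 1 single-cell library per depot from pooled pups, so depot, digestion time and library cannot be told apart. No difference between depots had a replicate check. The cell clusters carry the authors' names. In WAT these were the early precursors wAPC 1 to wAPC 4, the committed adipogenic precursors (wCAPs), the fibro-adipogenic progenitor-like cells (wFAPLs) and 15 differentiating wFAPLs. In BAT they were bAPC 1 to bAPC 5, bCAPs and bFAPLs.

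PPARG is the nuclear receptor that is required for fat cell formation and binds DNA as a heterodimer with a retinoid X receptor. C/EBP proteins are leucine zipper factors that bind DNA as dimers. In the textbook order of adipogenesis, C/EBPβ and C/EBPδ are induced early by adipogenic hormones, and they are followed by C/EBPα and PPARγ, which sustain each other's expression and bind many of the same adipocyte genes. C/EBPγ has no strong activation domain of its own and acts mainly as a dimer partner.

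The labelled precursors were the first 1999 cells of each depot in the authors' source data, a part of all precursors. They had a median of 27204 UMIs (unique molecular identifiers, each standing for 1 captured RNA molecule) per cell in WAT and 26900 in BAT. Levels are given as UMIs of a gene per 1000000 UMIs of the cells summed (CPM), with exact 95% Poisson intervals, and shares of cells with exact 95% Clopper-Pearson intervals. These intervals cover counting error only. They leave out the spread between cells, which was wider than counting error for most of these genes, so intervals that stand apart are no test. Of the labelled precursors, 3 barcodes occurred in both libraries. The precursor markers Pdgfra, Pdgfrb, Dlk1 and Dcn summed to between 791.8 and 1839 CPM in 13 of the 14 clusters and to 352.3 CPM in the differentiating wFAPLs. The mature adipocyte markers Adipoq, Plin1, Cidec and Lep summed to at most 2.1 CPM in any precursor cluster, with all 4 of them at 0 in wFAPLs and bFAPLs. Markers of mural cells (Rgs5, Myh11, Cspg4, Abcc9) summed to 2669 CPM in the differentiating wFAPLs, 211.4 in wFAPLs, 194.1 in bFAPLs and between 25.2 and 59.2 in the other 11 clusters, and their part in the results below was not tested beyond the values given with it. The clusters were made from these same counts and the CAPs were named partly by their Pparg, so contrasts between clusters are descriptions with no test.

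In the annotation of the mm10 build Pparg spans chr6:115360951-115490399 on the plus strand, with 7 transcripts over 13 separate exon stretches. The alternative starts of this gene give the widely expressed PPARγ1 and the fat-restricted PPARγ2, which the 3′ counts could not tell apart. Cebpa (chr7:35119293-35121928) and Cebpb (chr2:167688915-167690418) each lie in a single exon stretch on the plus strand, as does Cebpd (chr16:15887286-15891031), while Cebpg (chr7:35046422-35056573) is on the minus strand and has 3 exon stretches. Each gene overlaps at least 1 other annotated gene. For Pparg, Cebpa, Cebpb and Cebpd the overlapping gene is on the opposite strand, as Tmem189 is for Cebpb and Spidr for Cebpd, and Cebpg holds 2 unnamed transcripts on its own strand whose reads could be shared with it.

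The promoters of Pparg, Cebpa and Cebpb are shown because the widest CAP to FAPL difference was that of Pparg, and the widest differences of the C/EBP genes between brown and white CAPs were those of Cebpa and Cebpb. Sequences are from RefSeq on GRCm38.p6, 5′ to 3′ on the coding strand and ending at the base before the transcript start. Capitals mark matches on either strand to TTGCNNAA (the core of a C/EBP site), to CCAAT (the CCAAT box), to TATAAA (the TATA box) and to TGACG (a CREB half-site). For Cebpa and Cebpb the nearest 120 bases are printed.
Pparg, start at 115422066, chr6:115421816-115422065: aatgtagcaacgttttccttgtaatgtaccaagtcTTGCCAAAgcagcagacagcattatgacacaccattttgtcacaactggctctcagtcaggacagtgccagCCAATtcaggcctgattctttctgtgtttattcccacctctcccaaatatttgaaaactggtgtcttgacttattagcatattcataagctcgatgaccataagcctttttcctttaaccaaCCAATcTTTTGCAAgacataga
Cebpa, chr7:35119173-35119292: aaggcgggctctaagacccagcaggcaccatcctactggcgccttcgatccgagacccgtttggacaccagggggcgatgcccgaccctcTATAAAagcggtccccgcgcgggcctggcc
Cebpb, chr2:167688795-167688914: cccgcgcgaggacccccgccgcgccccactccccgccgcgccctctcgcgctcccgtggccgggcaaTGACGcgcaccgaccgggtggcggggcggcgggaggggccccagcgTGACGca
The Pparg window lies inside the gene, in an intron of its longer transcripts, before the start of the PPARγ2 form. It is 1 of 3 Pparg windows, printed because that form is the fat-restricted one, and the counts do not show which start was used. Of the others, the window at chr6:115360894-115361143 holds none of the 4 motifs, and the one at chr6:115362099-115362348 holds CCAAT 83 and TATAAA 29 bases upstream, both on the other strand. The printed window holds TTGCNNAA 215 and 16 bases upstream of the start and CCAAT 144 and 22 bases upstream. In the Cebpa window TATAAA begins 30 bases upstream, and in the Cebpb window TGACG begins 53 and 7 bases upstream, with another match 180 bases upstream that is not printed. Among 32851 promoter windows of 250 bases, TTGCNNAA was in 9.56%, CCAAT in 33.8%, TATAAA in 12.4% and TGACG in 17.8%. These matches describe the letters of the windows and show neither binding nor control.

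Pparg had the widest range of the 5 genes. In WAT its level ran from 9.48 CPM in wFAPLs (95% interval 7.36 to 12.0, 256 cells) to 92.5 in wCAPs (88.3 to 96.9, 674 cells). Between these ends lay the early clusters, with wAPC 2 lowest at 20.0 (17.0 to 23.4) and wAPC 1, wAPC 4 and wAPC 3 close together at 39.3, 44.8 and 49.5. The 15 differentiating wFAPLs stood at 77.6 CPM, with an interval (54.6 to 106.9) that overlapped both wCAPs and wAPC 3. The intervals of wAPC 1, wAPC 4 and wAPC 3 overlapped from one to the next, and wAPC 2 and wFAPLs each stood apart below them. In BAT the order was bCAPs (92.8 CPM, 86.3 to 99.6, 296 cells), bAPC 3 (74.9), bAPC 1 (66.4), bAPC 4 (66.1), bAPC 2 (47.6), bFAPLs (17.0, 14.2 to 20.2, 279 cells) and bAPC 5 (12.4, 8.85 to 16.9, 115 cells). The 3 clusters after bCAPs overlapped each other, as did the 2 lowest. Both depots thus had clusters at almost the same high level and at low levels, and the early brown clusters other than bAPC 5 and bAPC 2 lay above every early white cluster.

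Glial cells, which should lack Pparg, gave the background. They held 1 Pparg UMI in 20 WAT cells (2.11 CPM, 0.0535 to 11.8) and 4 UMIs, all in 1 cell, among 22 BAT cells (8.84 CPM, 2.41 to 22.6). The intervals of wFAPLs, bFAPLs and bAPC 5 overlapped these, and every other precursor cluster lay above the glial interval of its depot. The Pparg UMIs of the glia lay in 1 cell in each library. The brown one also held 3 of the 4 Cebpa UMIs and all 6 mature adipocyte marker UMIs of the BAT glia (13.3 CPM). Without these cells, an alternative added after the data were seen, the glia held 0 Pparg UMIs, which allows up to 6.67 CPM in WAT and 7.22 in BAT. The intervals of wFAPLs (from 7.36), bFAPLs (from 14.2) and bAPC 5 (from 8.85) lay above those limits. Exact upper ends were not computed for these glia, so no call is made on whether these 3 clusters exceeded the background.

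**Figure D1:**
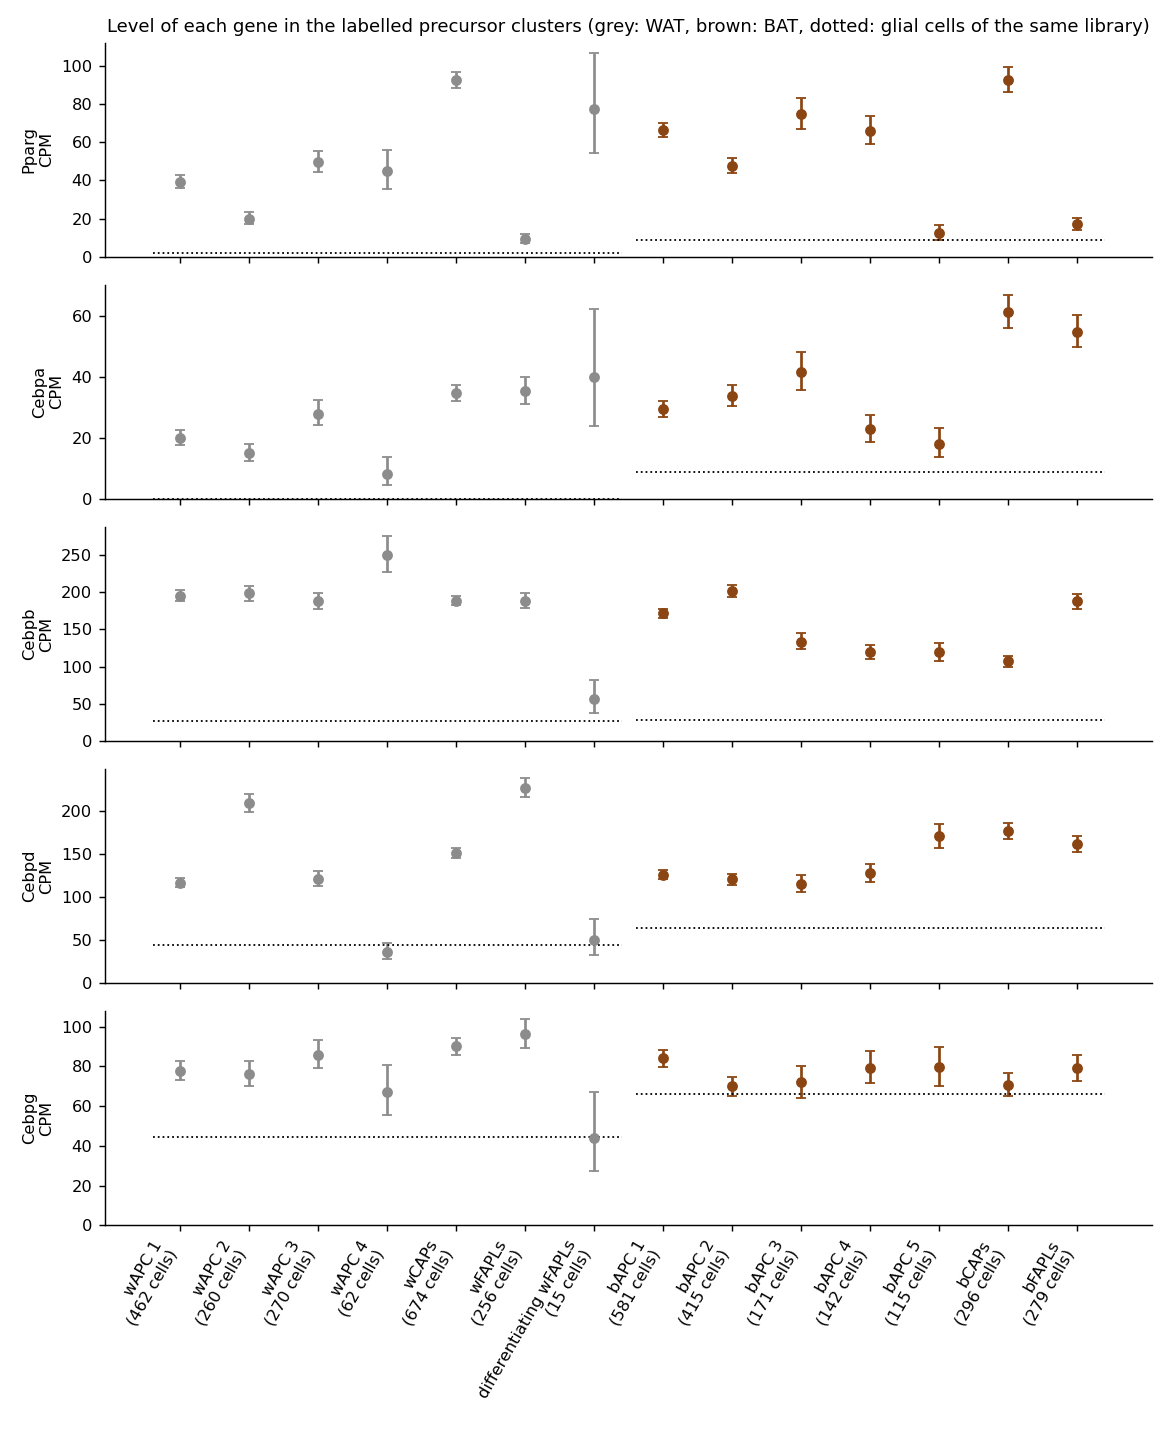
Level of each gene (CPM, 1 panel per gene, linear axis from 0) in the 14 labelled precursor clusters, white in grey and brown in brown, with cell numbers under the names. Points are summed levels, bars are exact 95% Poisson intervals and dotted lines are the level in glial cells of the same library. Pparg reaches 92.5 CPM in wCAPs and 92.8 in bCAPs and is lowest in wFAPLs, bFAPLs and bAPC 5, at 9.48, 17.0 and 12.4.

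Even in the CAPs many cells gave no Pparg UMI. In wCAPs 69.3% of cells (65.6 to 72.8) held at least 1, and in bCAPs 64.2% (58.4 to 69.6), against 15.2% in wFAPLs, 25.1% in bFAPLs, 5.00% of WAT glia and 4.55% of BAT glia. Median depths were 26992, 25900, 26730 and 25194 UMIs in the 4 precursor groups and 22607 and 17174 in the glia. If each cluster's UMIs had been spread over its cells at random, 90.7% of wCAPs and 90.0% of bCAPs would have held 1. The variance of Pparg UMIs per cell was 11.1 times the mean in wCAPs, where 1 cell held 88, and 6.21 times in bCAPs, against 1.23 and 1.69 times for Cebpg. With every cell thinned to 10000 UMIs the ratio was still 4.25 for Pparg in wCAPs and 3.14 in bCAPs, and 0.977 and 1.22 for Cebpg. Of the other members Cebpd came closest to Pparg, at 4.99 in wCAPs and 6.10 in bCAPs, and at 2.78 and 2.21 after thinning. Pparg was thus spread far more unevenly over CAPs than Cebpg was. This ratio rises with the mean, which in bCAPs was 2.57 UMIs per cell for Pparg and 4.90 for Cebpd. The unthinned ratios of these 2 genes are therefore not like measures of unevenness. Cebpd was in 87.5% of bCAPs where a random spread would give 98.3%, a smaller gap than that of Pparg.

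Cebpa, the partner of PPARγ late in adipogenesis, was about as high in FAPLs as in CAPs. In WAT it stood at 39.8 CPM in the differentiating wFAPLs (24.0 to 62.2), 35.4 in wFAPLs (31.2 to 40.1) and 34.7 in wCAPs (32.1 to 37.4). Among the early white clusters wAPC 3 held 28.0 CPM, wAPC 1 held 20.0, wAPC 2 held 15.1 and wAPC 4 held 8.25 (4.51 to 13.8, 62 cells). The 4 highest overlapped their neighbours, and wAPC 3 stood clear of wAPC 1. In BAT it was highest in bCAPs (61.2, 56.0 to 66.8) and bFAPLs (54.8, 49.6 to 60.3), which overlapped, and lower in bAPC 3 (41.5), bAPC 2 (33.7), bAPC 1 (29.3), bAPC 4 (22.8) and bAPC 5 (18.0). Glia held 0 Cebpa UMIs in WAT, which allows up to 7.79 CPM, and 4 in BAT (8.84 CPM, 2.41 to 22.6), 3 of them in the cell named above. The interval of wAPC 4 reached below the WAT limit. Those of bAPC 4 (18.6 to 27.5) and bAPC 5 (13.6 to 23.2) overlapped the BAT glia. Every other precursor cluster lay above the Cebpa interval of the glia of its depot. Within each depot both Pparg-high CAPs and Pparg-low FAPLs were therefore among the clusters with the most Cebpa.

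Set side by side, only Pparg passed 2-fold between CAPs and FAPLs. In WAT the log2 ratio (CAPs over FAPLs) was 3.29 for Pparg (2.94 to 3.66), a 9.76-fold difference, and -0.03 for Cebpa (-0.24 to 0.18). For bCAPs over bFAPLs it was 2.45 for Pparg (2.18 to 2.73), a 5.46-fold difference, and 0.16 for Cebpa (-0.03 to 0.35). In each depot 1 of the 5 members passed 2-fold, against 3.85% of 9199 genes in WAT and 3.87% of 9148 genes in BAT that reached 10 CPM in CAPs or FAPLs. The Pparg difference was larger in size than that of 99.8% of these genes in WAT and 99.5% in BAT, and the Cebpa difference than that of 10.7% and 49.2%. No background was subtracted from the FAPL levels of Pparg.

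Cebpb and Cebpd differed between CAPs and FAPLs in one depot and hardly in the other. Cebpb was at 188.4 CPM in wCAPs and 188.3 in wFAPLs (log2 ratio 0.00, -0.09 to 0.09), but at 106.9 in bCAPs and 187.6 in bFAPLs (-0.81, -0.93 to -0.69). Cebpd was at 151.3 in wCAPs and 227.2 in wFAPLs (-0.59, -0.67 to -0.50), but at 176.9 in bCAPs and 161.6 in bFAPLs (0.13, 0.02 to 0.24). The brown Cebpb gap was wider than that of 94.3% of genes tested there and the white Cebpd gap wider than that of 91.3%. Whether these contrasts differ between depots was not tested, with 1 library each. Cebpg differed little in either depot, with log2 ratios of -0.10 in WAT (-0.23 to 0.03) and -0.16 in BAT (-0.33 to 0.01).

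A mural-marker UMI was present in 198 of 256 wFAPLs (77.3%) and 217 of 279 bFAPLs (77.8%). The share of cells with such a UMI was 39.5% in wCAPs and 48.6% in bCAPs. Without the cells that held one, a comparison added after the data were seen, the Pparg ratio was 4.01 in WAT and 2.12 in BAT. The Cebpd ratio was then -0.99 in WAT and -0.23 in BAT, so the sign of the brown Cebpd difference depended on these cells. The Cebpb ratio in WAT became -0.36 and the Cebpa ratio in BAT 0.51. These ratios rest on the few FAPLs that remained, are given without intervals and were not matched for depth.

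**Figure D2:**
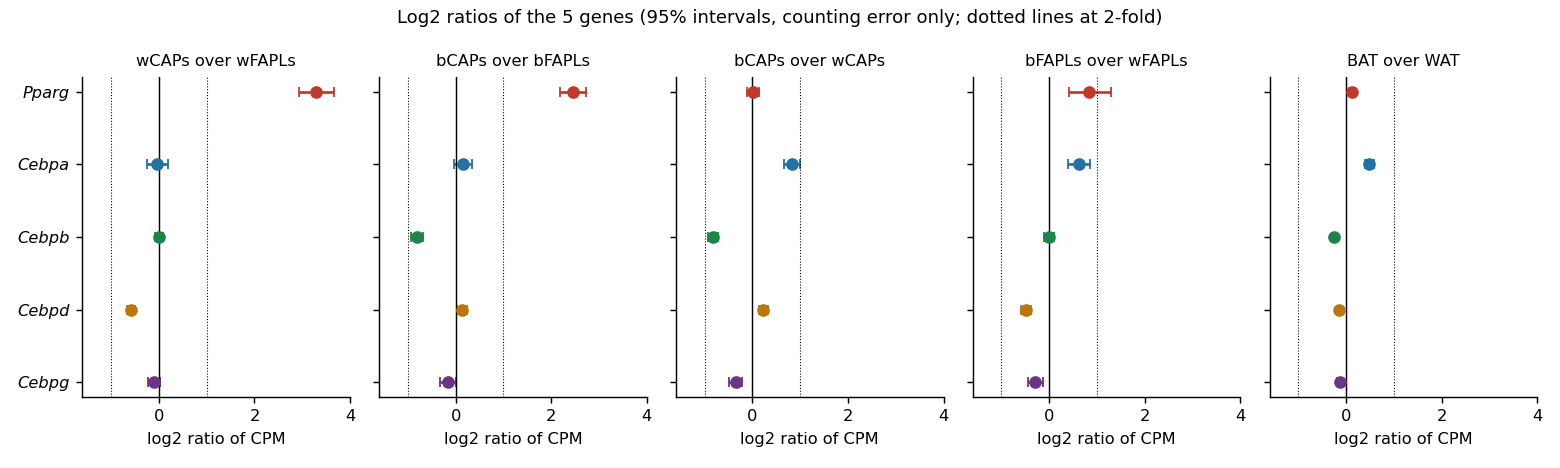
Log2 ratio of the summed level (CPM) of each gene in 5 contrasts, 1 panel each, with bars for 95% conditional binomial intervals (counting error only) and dotted lines at 2-fold. Pparg lies beyond the right dotted line in both CAP over FAPL panels, at 3.29 and 2.45, and the other genes lie between the lines in every panel.

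The early clusters added further patterns for Cebpb and Cebpd. Cebpb was highest in wAPC 4 (250.4 CPM, 227.2 to 275.4), stayed between 188.0 and 198.5 in the 5 other large white clusters, and was at 56.6 CPM in the differentiating wFAPLs (37.3 to 82.4). In BAT it spread from 106.9 in bCAPs through 119.3 in bAPC 4, 119.9 in bAPC 5 and 133.7 in bAPC 3 to 171.7 in bAPC 1, 187.6 in bFAPLs and 201.4 in bAPC 2 (193.4 to 209.5). The 62 cells of wAPC 4, the cluster with the most Cebpb, had the lowest values of Cebpa and of Cebpd (36.5 CPM, 28.0 to 46.8) among the white clusters, overlapping wAPC 2 in Cebpa and the differentiating wFAPLs in Cebpd. Cebpd in WAT was highest in wFAPLs (227.2) and wAPC 2 (209.4), the 2 clusters lowest in Pparg. In BAT it ranged from 115.5 in bAPC 3 to 176.9 in bCAPs, with bAPC 5, lowest in Pparg, at 170.7 and overlapping bCAPs.

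Cebpg was the flattest member. It lay between 67.2 and 96.5 CPM in the 6 larger white clusters and between 69.9 and 84.0 in the 7 brown ones, and every neighbour in its order overlapped the next in both depots. The differentiating wFAPLs, at 44.0 CPM (27.3 to 67.3), were its lowest point. Glia held 44.3 CPM in WAT and 66.3 in BAT, so this gene was not particular to precursors.

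Across whole depots the 5 genes differed less than across clusters. Pparg was at 52.6 CPM in WAT and 57.4 in BAT (log2 BAT over WAT 0.13, 0.05 to 0.20), and Cebpa at 26.9 and 37.8 (0.49, 0.40 to 0.59). Cebpb was at 192.1 and 160.8 (-0.26, -0.30 to -0.22), Cebpd at 152.4 and 138.6 (-0.14, -0.18 to -0.09), and Cebpg at 84.4 and 77.0 (-0.13, -0.19 to -0.07). None of the 5 passed 2-fold, as did 1.83% of 9041 genes, and the median size of a log2 difference over those genes was 0.16. The Cebpa gap was wider than that of 92.7% of these genes and the Cebpb gap than that of 71.5%, while the other 3 gaps lay below the median. The depots also held different shares of each cluster, with 674 wCAPs against 296 bCAPs in 1999 cells each. With clusters weighted equally the Cebpd difference turned to 0.13, and without the 15 differentiating wFAPLs as well it was -0.01, so no direction is given for it.

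The clusters that carry the same name in both depots, CAPs and FAPLs, were also compared directly. Between bCAPs and wCAPs Pparg was level (log2 0.00, -0.12 to 0.13), Cebpa was 1.77-fold higher in bCAPs (0.82, 0.65 to 0.99) and Cebpb was lower there (-0.82, -0.93 to -0.71). Between bFAPLs and wFAPLs Cebpa was again higher in BAT (0.63, 0.40 to 0.86) while Cebpb was level (-0.01, -0.11 to 0.10). Cebpd was lower in bFAPLs than in wFAPLs (-0.49, -0.60 to -0.38) and a little higher in bCAPs than in wCAPs (0.23, 0.13 to 0.32). Cebpg was a little lower in BAT in both (-0.35, -0.49 to -0.21 in CAPs and -0.29, -0.45 to -0.13 in FAPLs). Pparg between the FAPLs was at 0.84 (0.41 to 1.29), at low levels in both. None of the 5 passed 2-fold in either contrast, against 4.32% of 9235 genes between the CAPs (2.14% higher and 2.18% lower in BAT) and 1.69% of 9136 between the FAPLs (0.646% higher and 1.04% lower).

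Whether Pparg and each C/EBP gene were found in the same cells was measured after thinning every labelled precursor to 10000 UMIs, which left out no cell. The number of cells with a UMI of both genes was divided by the number that independent detection would give. For Pparg and Cebpa in WAT 167 cells held both where 127.6 were expected, a ratio of 1.31 (95% Poisson interval 1.12 to 1.52). Cebpa was found in 29.5% of cells with Pparg (25.7 to 33.4) and 19.8% of those without (17.7 to 21.9). With the expected number added up within clusters the ratio was 1.23 (1.05 to 1.43), and in wCAPs alone it was 1.25 (1.02 to 1.51, 109 cells). With 2 UMIs or more of both genes required, the white ratio was 2.05 (1.27 to 3.14, 21 cells), and without thinning it was 1.11. Over 8069 genes paired with Pparg in the same way the ratio had a median of 1.00 and a 5th to 95th percentile range of 0.886 to 1.13, and 99.8% of genes lay below Cebpa. Genes found in very few or nearly all thinned cells were left out, and the others were not matched to Cebpa in share of cells. The ratio can rise higher for a gene found in fewer cells, so this rank does not measure how unusual Cebpa was.

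In BAT 180 cells held both genes against 179.1 expected (1.01, 0.86 to 1.16), with 1.06 in bCAPs (0.82 to 1.36) and 0.73 in bFAPLs (0.35 to 1.33, 10 cells). With 2 UMIs or more required the brown ratio was 1.26 (0.81 to 1.86, 25 cells), and at 5000 UMIs a cell it was 1.17. Cebpa was found in 28.3% of BAT cells with Pparg and 28.0% of those without. The interval of the brown ratio reached above the lower end of the white one. The other 3 C/EBP genes lay near 1 with Pparg in both depots. In WAT the ratios were 1.00 for Cebpb (0.91 to 1.10), 0.98 for Cebpd (0.88 to 1.09) and 1.00 for Cebpg (0.90 to 1.12), and in BAT 1.01 (0.92 to 1.10), 0.93 (0.84 to 1.03) and 0.94 (0.84 to 1.05). Over 8015 genes in BAT the 5th to 95th percentile range was 0.892 to 1.11, and all 4 brown ratios fell inside it. These are weak relations in sparse counts and are given as descriptions.

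**Figure D3:**
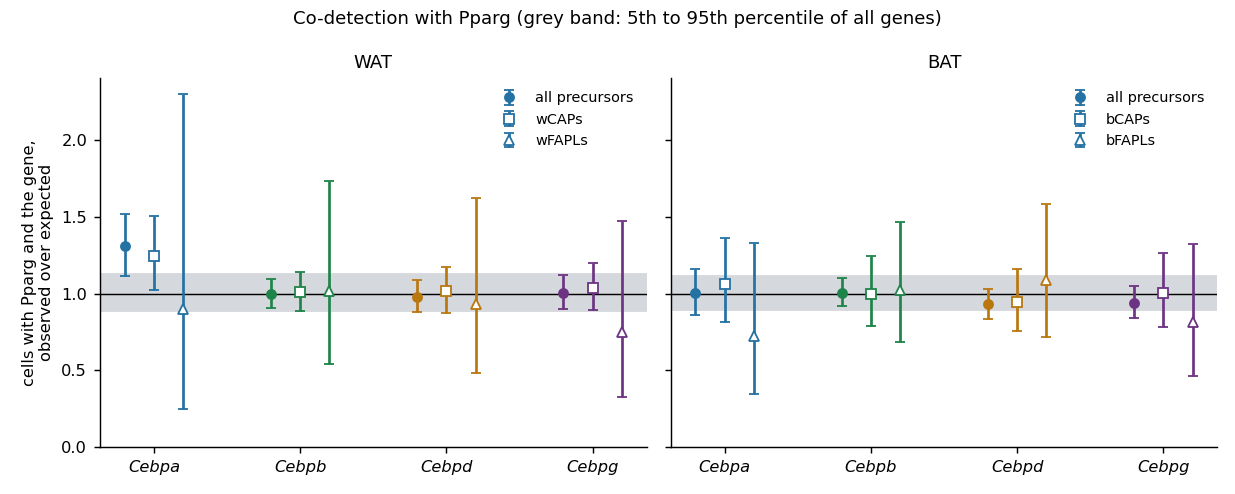
Cells with a UMI of both Pparg and the named C/EBP gene, observed over expected (1 is independent detection), for WAT on the left and BAT on the right, with cells thinned to 10000 UMIs. Filled circles are all precursors, squares CAPs and triangles FAPLs, and bars are 95% Poisson intervals of the observed count. The grey band is the 5th to 95th percentile of the genes paired with Pparg, which were not matched in share of cells. Cebpa in WAT lies above the band at 1.31, and the other circles lie inside it.

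Cells were then sorted by their number of Pparg UMIs after thinning. In WAT Cebpa was at 25.2 CPM in the 1432 cells with none, 31.1 in the 347 with 1, 38.3 in the 120 with 2 and 55.0 in the 100 with 3 or more (41.4 to 71.6). In BAT it was at 38.5, 36.7, 45.7 and 53.3 CPM (41.1 to 68.1) in 1362, 379, 138 and 120 cells. The white end classes did not overlap in their intervals and the brown ones did (35.3 to 42.0 without Pparg). Within wCAPs the same steps were 26.8, 41.6, 43.6 and 57.6 CPM, again without overlap of the end classes, and within bCAPs 62.3, 68.1, 78.8 and 100.0, with overlap. The target genes Fabp4, a fatty acid carrier, and Lpl, the lipase that takes up lipoprotein fat, were higher in the highest than in the lowest class. Fabp4 was at 155.0 against 51.1 CPM in WAT and 243.3 against 105.1 in BAT, and Lpl at 844.0 against 353.9 and 646.7 against 307.9.

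Cebpd was lower where Pparg was higher in BAT, at 149.8 CPM in cells without Pparg (143.3 to 156.4) and 90.8 in cells with 3 or more UMIs (74.6 to 109.6). Without thinning the log2 ratio of these classes was -0.35 in place of -0.72. Within bCAPs the steps were 183.0, 161.1, 200.0 and 134.4 CPM, with no steady order and overlapping end classes. In WAT Cebpd was at 163.3 and 138.0 CPM in the same classes, with intervals that overlapped. Cebpb was at 196.3 and 200.0 CPM in WAT and 164.4 and 167.5 in BAT, and Cebpg at 84.2 and 77.0 and at 79.1 and 85.0, with overlapping intervals for both genes. Over all cells with Pparg against those without, the log2 ratio in WAT was 0.55 for Cebpa (0.30 to 0.80). It was above that of 99.5% of the 8069 genes, which were not matched in level. In BAT it was 0.12 for Cebpa (-0.10 to 0.33) and -0.21 for Cebpd (-0.33 to -0.10), with 8.23% of genes lower than Cebpd.

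**Figure D4:**
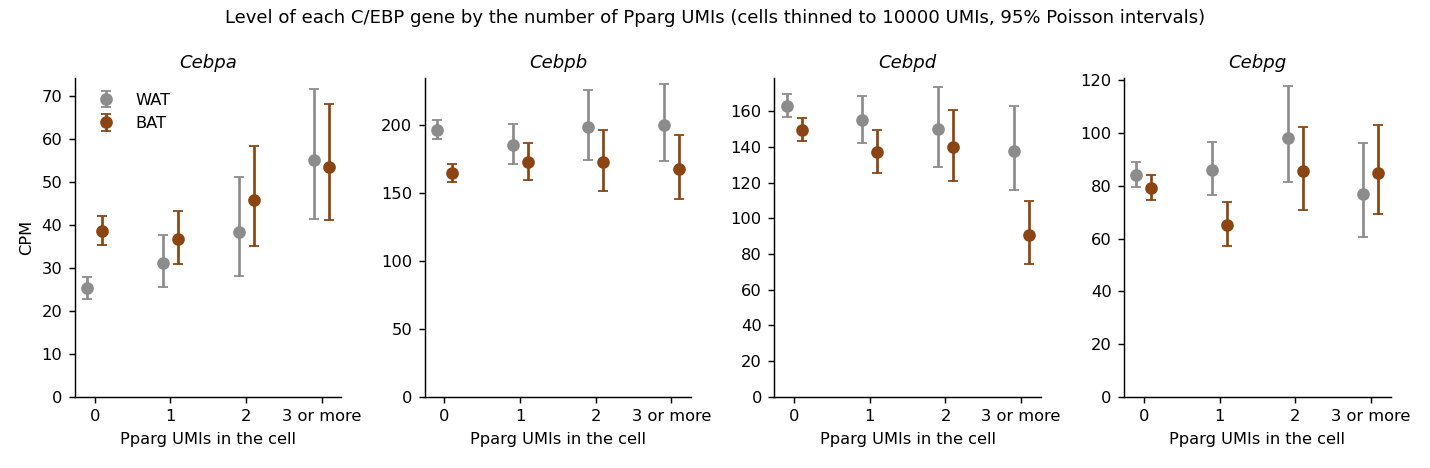
Level of each C/EBP gene (CPM, linear axis from 0) in precursors thinned to 10000 UMIs, grouped by the number of Pparg UMIs in the cell, with WAT in grey and BAT in brown and 95% Poisson intervals as bars. At 3 or more Pparg UMIs Cebpa is at 55.0 CPM in WAT and 53.3 in BAT and Cebpd in BAT at 90.8, and the end classes of Cebpb and Cebpg overlap.

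Cells were also sorted by the presence of Pparg and Cebpa, and the gene more often found alone differed between wCAPs and the FAPLs of both depots. The CAPs were named partly by their Pparg, so this difference is partly built in. In thinned wCAPs 16.2% of cells held both (13.5 to 19.2), 29.1% Pparg alone, 12.5% Cebpa alone and 42.3% neither. In wFAPLs 1.56% held both (0.427 to 3.95, 4 cells), 5.08% Pparg alone, 24.6% Cebpa alone and 68.8% neither. In bCAPs the shares were 20.9%, 25.3%, 21.6% and 32.1%, and in bFAPLs 3.58%, 9.68%, 33.7% and 53.0%. Cells with Cebpa and no Pparg UMI were thus the larger of the 2 single-gene classes in FAPLs of both depots, and Pparg alone was the larger in wCAPs. In bCAPs those classes overlapped within their intervals (20.5 to 30.7 and 17.1 to 26.8). Among the early clusters, Cebpa alone was also the larger in bAPC 5, at 15.7% against 6.09%, with overlapping intervals. In wAPC 2 the classes were about even, at 11.5% with Cebpa alone and 11.9% with Pparg alone. A missing UMI at this depth does not show that a gene was silent. Among glia 20 of 20 WAT cells and 21 of 22 BAT cells held neither.

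**Figure D5:**
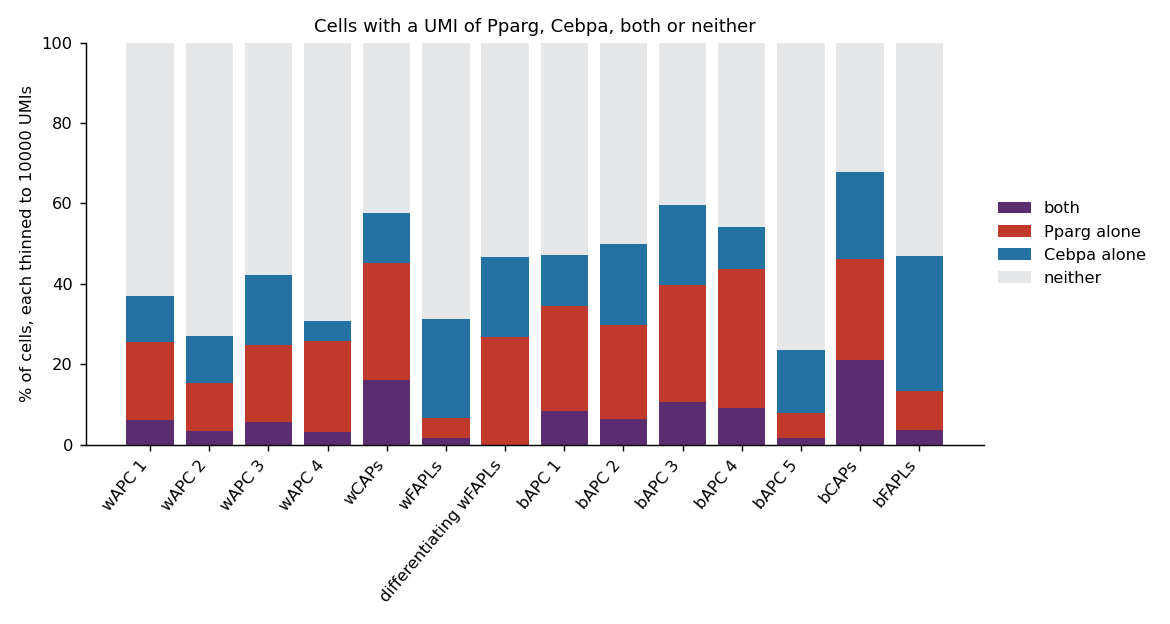
Share of cells (%, stacked to 100, each cell thinned to 10000 UMIs) with a UMI of both Pparg and Cebpa, Pparg alone, Cebpa alone or neither, in the 14 labelled precursor clusters. Cebpa alone makes up 24.6% of wFAPLs and 33.7% of bFAPLs, where both genes together are at 1.56% and 3.58%.

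All 5 genes were found in the same thinned cell in 54 WAT precursors (2.70%, 2.04 to 3.51) and 39 BAT precursors (1.95%, 1.39 to 2.66). Of these, 38 were wCAPs (5.64% of the cluster, 4.02 to 7.66) and 11 were bCAPs (3.72%, 1.87 to 6.55). In wFAPLs and bFAPLs 1 cell each was found. Pparg alone was in 45.3% of thinned wCAPs and 6.64% of wFAPLs, and in 46.3% of bCAPs and 13.3% of bFAPLs. The CAPs were named partly by their Pparg, so this gap is partly built in. The number that independent detection would give was not computed, so no joint presence beyond it is read from these shares. None of the 62 wAPC 4 cells held all 5, which allows a share of up to 5.78%, and none of the 115 bAPC 5 cells, which allows up to 3.16%. The mean number of the 5 genes found per cell was 2.71 in wCAPs, 2.47 in wFAPLs, 2.67 in bCAPs and 2.47 in bFAPLs.

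Levels also differed between cell cycle phases, as scored from S and G2/M genes. Pparg was highest in G1 cells of both depots (57.1 CPM in WAT, 62.4 in BAT) against 44.0 and 50.9 in S and 47.2 and 47.5 in G2/M. Cebpb and Cebpd were also highest in G1, with G1 against G2/M levels of 205.7 and 174.0 CPM for Cebpb and 168.5 and 125.4 for Cebpd in WAT, and of 167.1 and 147.3 and of 143.0 and 122.9 in BAT. Cebpd in BAT was as high in S (140.9 CPM), with overlapping intervals. Cebpa in WAT was at 28.8 CPM in G1, 19.9 in S (17.4 to 22.8) and 27.8 in G2/M, and in BAT at 36.5, 34.3 and 45.3. In WAT it was thus lowest in S and in BAT highest in G2/M (41.5 to 49.4), and whether the depots differ in this was not tested. Cebpg was highest in G2/M in both (90.4 and 85.2 CPM), overlapping its level in S. Cells in G2/M were deeper, with medians of 31198 and 32196 UMIs against 25529 and 25313 in G1. The G2/M-scored share was 45.2% in wAPC 3 and 46.2% in bAPC 3 and at most 18.0% in every other cluster.

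Other genes of the pathway were read from 8 lists holding 99 genes. For each list the genes with at least 10 CPM in CAPs or FAPLs were counted. Over all genes, 1.60% passed 2-fold higher and 2.25% lower in wCAPs over wFAPLs, and 2.01% and 1.86% in bCAPs over bFAPLs, with median log2 ratios of 0.01 and 0.04.

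Among adipocyte target genes 7 of 28 reached 10 CPM in WAT, and 3 of these were higher in wCAPs and 0 lower past 2-fold. In BAT 9 of 28 did, and 2 were higher and 1 lower. The list medians were 0.32 and 0.57. Lpl (log2 1.65 in WAT and 1.09 in BAT) and Fabp4 (1.21 and 1.72) were past 2-fold in both depots. Plin2, which coats lipid droplets, was at 1.11 and 0.86. Fabp5, a second fatty acid carrier, was at -0.77 and -0.68, and Mgll, a monoglyceride lipase, was lower in bCAPs (-2.38, 2.80 against 14.6 CPM). The other 21 genes in WAT and 19 in BAT, among them Adipoq, Plin1 and Ucp1, were below 10 CPM in both profiles. The authors described the clusters partly by Fabp4, so it is no independent sign of them.

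Coregulators of PPARG and inducers of Pparg gave few differences of this size. Of 12 measured coregulators, 1 was higher in each depot, and it was Prdm16, the brown fat cofactor, at 1.65 in WAT (18.4 against 5.86 CPM) and 1.01 in BAT (0.53 to 1.50, 14.4 against 7.16 CPM). Of the inducers, 0 of 10 passed 2-fold in WAT, and 1 of 11 was lower in BAT. That gene was Klf4, an early zinc finger activator of Cebpb, at -0.44 in WAT and -1.22 in BAT. Ebf2, a precursor factor of brown fat, was at -0.13 in WAT and 0.96 in BAT, and Zfp423, which promotes Pparg expression in preadipocytes, at 0.59 and 0.79.

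Repressors of adipogenesis held 1 of 9 genes lower in CAPs past 2-fold in each depot, which was Nr2f2, an orphan nuclear receptor, at -1.45 and -1.25. Dlk1, the preadipocyte factor, was at 0.97 in WAT and -0.09 in BAT. The list medians were -0.11 and -0.02. Of the other PPAR and RXR receptors 0 of 3 measured passed 2-fold in either depot. The PPARG partners Rxra and Rxrb were at -0.07 and 0.02 and at 0.52 and -0.21, and Ppard, another PPAR, was at 0.18 and 0.50.

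Of the C/EBP dimer partners 4 were measured and 0 passed 2-fold in either depot. In BAT Ddit3, a stress-induced C/EBP protein that blocks its partners' DNA binding, was at -0.99 (71.6 CPM in bCAPs against 142.0 in bFAPLs), Atf5 at -0.55, Atf4 at -0.34 and Nfil3 at 0.22. In WAT the same 4 genes lay between -0.03 and 0.09. The list median was -0.44 in BAT and 0.03 in WAT, beside medians of 0.04 and 0.01 over all genes. Cebpe, the C/EBP gene of granulocytes, had 0 UMIs in these 4 clusters.

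Inflammatory genes, which include known C/EBP targets, lay on both sides of 0. Of 6 measured in WAT 2 were higher and 1 lower past 2-fold, and of 5 in BAT 1 was higher and 0 lower. Hp, an acute-phase protein made by fat and liver, was higher in CAPs at 2.11 in WAT and 2.50 in BAT (308.4 against 54.7 CPM), and Saa3 was higher in wCAPs at 2.62 (14.6 against 2.37 CPM). Il6 was at -1.78 in WAT, past 2-fold, and -0.66 in BAT, and Ccl2 was at 0.92 in WAT and -0.75 in BAT. Of the immediate early genes, which respond within minutes to handling and serum, 0 of 14 in WAT and 0 of 13 in BAT passed 2-fold, with list medians of 0.00 and 0.07. Their summed level was 2134 CPM in wCAPs, 2062 in wFAPLs, 1847 in bCAPs and 1740 in bFAPLs.

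Between depots, 0.752% of genes were higher and 1.07% lower in BAT past 2-fold, and 2 list genes were higher and 1 lower. Hp (2.21) and Ptx3 (1.08) were higher in BAT and Saa3 lower (-2.53, 2.20 against 12.7 CPM). Short of 2-fold, Ebf2 was at 0.96, Fabp4 at 0.92, Nrip1, a corepressor of nuclear receptors, at -0.82 and Fosb at -0.76.

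The genes most like each member across clusters were found by Pearson correlation of log2(CPM + 1) over the 14 clusters and 10228 genes. The points share 2 libraries and are not independent, so the values are descriptions. For Pparg the closest was Plaat3 (0.82), a phospholipase of adipocytes, followed by Pcnx4, Fah, Gm41609 and Palld (0.77 to 0.69). For Cebpa it was Gstt1 (0.90), with Mcee, Atoh8, Cenpk and Camta2, for Cebpb Thbs2 (0.95), with Plat, Tpt1, Pdxk and Col1a1, and for Cebpd the clock gene Per1 (0.94), with Stn1, Shisa4, Naprt and Pgap1. For Cebpg it was Abcd3 (0.93), with Eef2k, Hsd17b1, Slc35d2 and Cc2d2a. Without the 15 differentiating wFAPLs, 1 of the 5 named genes was kept for Pparg, 2 for Cebpa, 2 for Cebpb, 3 for Cebpd and 1 for Cebpg. None of the members was among the 5 genes closest to another. Between members the correlation was 0.23 for Pparg and Cebpa, -0.43 for Pparg and Cebpd, 0.68 for Cebpd and Cebpg, the highest of the 10 pairs, and 0.66 for Cebpb and Cebpg. Without the differentiating wFAPLs the last of these was 0.06 and that of Cebpd and Cebpg 0.54, below 0.56 for Cebpa and Cebpd. Over the 7 white clusters alone Cebpd with Cebpg was at 0.74 and Cebpb with Cebpg at 0.79. Over the 7 brown clusters they were at 0.09 and 0.08, so both relations were seen in the white clusters only.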

How the data were processed

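Per the labels and the study's methods, the libraries were made with 10x Genomics 3′ v3.1 chemistry and counted by the authors with Cell Ranger 7.0.1 at default settings on mm10, which also counts intronic reads. The deposited values are raw UMI counts per gene and cell (144451047 UMIs in 5261 WAT cells, 205551320 in 7009 BAT cells), with no normalization. The submitters' processing notes name the same tool and build.

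The authors' stated filter was applied (over 3900 and under 7700 genes, over 6000 and under 60000 UMIs, mitochondrial share between 1.7% and 5%) and left 4407 and 6137 cells, the latter not the number that the study states for BAT. The maxima were the only guard against doublets. Cluster names come from the authors' source data, of which the first 1999 precursors per depot were available here. The main results therefore use only a part of the precursors, which numbered 4331 in WAT and 5963 in BAT with carried names. As an alternative they were carried over to the other cells from 15 neighbours in 10 components, which returned 84.3% and 79.9% of held-out names, and in 30 components, which was tried first (85.4% and 79.2%).

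UMIs were summed per cluster. With 1 library per depot no test was run. Log2 ratios have 95% conditional binomial intervals, and genes under 10 CPM in both profiles were left out of counts. Cells were thinned to 10000 UMIs for shares and co-detection. On simulated sums drawn with counting error alone, intervals held the true ratio for 95.3% of 8838 genes in wCAPs over wFAPLs. The value was 95.5% of 8790 genes in bCAPs over bFAPLs. Counting error alone is what the intervals assume, and the simulation had no spread between cells. It therefore checks the calculation and does not show that the intervals are wide enough for these cells. Genes changed 2-fold passed 2-fold in 58% and 59% of 100 cases and 4-fold ones in 100%.

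The members and lists were chosen with earlier results of these data known. Named from each list are up to 3 genes in each direction by CAP over FAPL ratio in each depot (2 by BAT over WAT ratio), and the 5 genes most correlated with each member. Genes at levels below 10 CPM named in the text, and Fabp4 and Lpl by Pparg class, were named outside this rule. Alternatives were other weights, depths, phases, filters and carried names. Python 3.11.15, scipy 1.17.1 and scanpy 1.11.5 were used.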

Additional observations from a re-analysis of the deposited data

Results flagged for a closer look

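For 3 of the C/EBP genes the CAP over FAPL log2 ratio of summed levels had opposite signs in the depots. For Cebpd alone both intervals, of counting error only, excluded 0. Over cells the variance of Cebpd UMIs was 6.10 times the mean in bCAPs and 4.35 times in bFAPLs. An interval that covered this spread would be wider, so the brown sign of Cebpd is not settled. Cebpa was at -0.0316 in WAT and 0.16 in BAT, with intervals that both included 0. Cebpb was at 0.000911 in WAT, level within its interval (-0.09 to 0.09) and at -0.06 with carried names, and at -0.81 in BAT. Cebpd was at -0.59 in WAT and 0.13 in BAT, where the sign turned to -0.23 without cells that held a mural-marker UMI. The difference between depots was not tested for any of them, since each depot is 1 library.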

How the results depend on the processing

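Of 206 values recomputed under alternatives, 149 stayed within their counting intervals or within 1.5 times a count, 55 moved beyond and 2 turned sign. The cause was not tested. For BAT over WAT, G1 cells alone gave 0.34 for Cebpa, -0.30 for Cebpb and -0.24 for Cebpd. Clusters weighted equally gave 0.13 for Cebpd, which turned its sign, and -0.0085 for Cebpg, and without the differentiating wFAPLs as well, added after seeing the data, 0.34 for Pparg, 0.66 for Cebpa, -0.44 for Cebpb and -0.0106 for Cebpd. For CAPs over FAPLs, thinning gave 0.12 for Cebpb in WAT, and carried names gave 0.35 for Cebpa and -0.65 for Cebpb in BAT, the latter -0.64 with 30 components. Without cells with a mural-marker UMI (added after seeing the data) Pparg was at 4.01 and Cebpb at -0.36 and Cebpd at -0.99 in WAT, and in BAT Pparg was at 2.12, Cebpa at 0.51 and Cebpd at -0.23, which turned its sign.

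Thinning lowered the share of cells with Pparg to 45.3% of wCAPs, 6.64% of wFAPLs, 46.3% of bCAPs and 13.3% of bFAPLs, and with Cebpa to 28.6%, 26.2%, 42.6% and 37.3%. Observed over expected co-detection with Pparg was 1.11 for Cebpa in WAT unthinned. With 2 UMIs or more of each gene required it was 2.05 for Cebpa and 0.88 for Cebpd in WAT and 1.26 for Cebpa, 0.84 for Cebpd and 1.23 for Cebpg in BAT. At 5000 UMIs it was 1.17 for Cebpa and 1.06 for Cebpg in BAT. Unthinned, the log2 ratio of cells with 3 or more Pparg UMIs over cells with 0 was 0.44 for Cebpa in WAT (1.13 thinned). It was -0.35 for Cebpd in BAT (-0.72 thinned). The unthinned classes were sorted anew by full counts and hold other cells.

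At 50 CPM or more, 3 list genes were higher and 1 lower in wCAPs and 0 lower in BAT over WAT. At 1.5-fold the counts were 11 and 5 in WAT, 9 and 8 in BAT, and 5 higher and 9 lower in BAT over WAT. The share of all genes is not given at 50 CPM or at 1.5-fold, so no excess is read from these counts. The summed immediate early genes of bCAPs over bFAPLs were at 0.0501 in G1 cells (0.09 in all). With depot means subtracted, 3 of the 5 genes most like Cebpa, 3 for Cebpb and 1 for Cebpg were kept, and without the differentiating wFAPLs 1, 2, 2, 3 and 1 for Pparg, Cebpa, Cebpb, Cebpd and Cebpg.

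Without the 1 glial cell that held Pparg, Pparg in the glia was at 0 CPM in WAT and 0 CPM in BAT (added after seeing the data).

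No paired analysis was possible because each depot has 1 library and no result comes from a test. No replicate was left out, for the same reason. The limit that a count of 0 allows (3 UMIs) was 0.155 CPM in wCAPs and 6.29 CPM in the 15 differentiating wFAPLs, whose levels are the least precise.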

Other observations

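Outside the precursors, myeloid cells held Pparg and all 4 C/EBP genes. The 14 WAT myeloid cells had 108.3 CPM of Pparg (78.1 to 146.4) and 61.9 of Cebpa (39.6 to 92.1), and the 27 BAT ones 58.7 (42.8 to 78.5) and 66.5 (49.5 to 87.4). Cebpb was at 136.7 CPM in WAT and 237.2 in BAT myeloid cells (204.0 to 274.3), and Cebpd at 41.3 and 40.4, below 13 of the 14 precursor clusters. C/EBPα and C/EBPβ are known factors of myeloid cells. The 8 BAT myoblasts held 7 UMIs of Pparg and 4 of Cebpa.

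Cells above the filter's maxima, 239 in WAT and 412 in BAT with medians of 59884 and 62026 UMIs, held 58.6 and 71.4 CPM of Pparg and 21.7 and 42.3 of Cebpa. Cebpb was at 162.1 and 145.6 CPM and Cebpd at 111.7 and 111.3 in them.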
